A study of Homo sapiens with 18 samples.

Results

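The ERK pathway feedback and output genes were 10 genes that growth factor and oncogene signaling switches on through the kinase ERK, namely PHLDA1, DUSP4, DUSP5, DUSP6, SPRY2, SPRY4, SPRED1, SPRED2, ETV4 and ETV5. They were found as the probe sets (groups of short oligonucleotides on the array that read 1 transcript) whose only symbol in the probe table was 1 of these names. This gave 28 of 54675 probe sets and 10 of 19775 genes, so every gene was measured. A gene with several probe sets was represented by the probe set with the highest mean over the 18 arrays, called its main probe set, and the others are given beside it. That mean, which includes the MEL arrays, chose the probe sets and is otherwise used only as a description. It was 7.73 on the log2 scale for PHLDA1, where the next probe set had 6.91, and it was closest to its runner-up in ETV4, with 7.30 and 7.22. In untreated cells alone this runner-up was the brighter, with 7.51 against 7.38, so for ETV4 the choice depended on the MEL arrays. The median probe set of these arrays had a mean of 4.61. The main probe sets of DUSP4 (3.80) and DUSP6 (3.86) lay below this level and that of DUSP5 (4.70) lay close to it, so changes of these 3 genes were read from dim signals.

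The 18 arrays came from K562 cells, a human line from chronic myelogenous leukemia that carries the BCR-ABL1 fusion kinase. The cells had been transduced with retroviral vectors for wild-type calreticulin (LCALRwtIDN, CALRwt), the deletion mutant (LCALRdel52IDN, CALRdel52) or the insertion mutant (LCALRins5IDN, CALRins5) and purified by the NGFR marker of the vector. Each vector had 3 untreated arrays and 3 arrays of cells exposed for 24 h to Melittin (MEL) at 5 μg/mL, a bee venom peptide used here to cause oxidative stress. All 6 groups therefore carry a transgene on top of the cells' own CALR, in 1 cell line, and there was no group without a vector. The comparisons ask whether these genes differed between mutated and CALRwt cells and how they changed with MEL. How long the untreated cells were kept in culture after sorting differs between the sources, so MEL and time in culture cannot be fully told apart. The labels mention 3 independent experiments without saying which arrays share one. If replicates were not separate cultures, the spread behind the p-values may be technical only. In RNA of a whole culture, fewer cells that express a gene and less of its RNA per cell cannot be told apart.

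The RAS to ERK cascade passes signals from receptors and kinases such as BCR-ABL1 through RAS, RAF and MEK to the kinase ERK, which phosphorylates transcription factors in the nucleus. Among the genes switched on are its own brakes. The DUSP phosphatases remove the activating phosphates from ERK and related kinases, Sprouty and SPRED proteins act upstream on RAS and RAF, and the ETS factors ETV4 and ETV5 pass the signal on to further genes. Transcripts of such genes are often read together as a measure of ERK output.

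Promoter sequence was used for 6 of the 10 genes, as 9 windows of 250 bases before a transcription start (RefSeq, GRCh38.p14). They were searched on both strands for the ETS core CCGGAA, the AP-1 motif TGANTCA and the CArG box of serum response factor. A single ETS core that overlapped no other match was found in 1 window each of PHLDA1 and SPRY2, so 2 of the 9 windows held a match. The other SPRY2 windows held none. Among 35116 windows of the same length, 14.5% held the ETS core, 6.57% the AP-1 motif, 1.16% the CArG box and 21.5% any of the 3. The matching windows of PHLDA1 and SPRY2 are shown. That of SPRED1 is shown because this gene had the largest change with MEL of the 10 and none of the 3 motifs. The PHLDA1 window lies at chr12:76031777-76032026 and the SPRY2 window at chr13:80341127-80341376, both printed from the minus strand. The SPRED1 window lies at chr15:38252586-38252835 on the plus strand. Capitals mark the ETS core, which reads as its reverse complement at bases 89 to 84 before the start of PHLDA1 and directly at bases 142 to 137 before the start of SPRY2.
PHLDA1: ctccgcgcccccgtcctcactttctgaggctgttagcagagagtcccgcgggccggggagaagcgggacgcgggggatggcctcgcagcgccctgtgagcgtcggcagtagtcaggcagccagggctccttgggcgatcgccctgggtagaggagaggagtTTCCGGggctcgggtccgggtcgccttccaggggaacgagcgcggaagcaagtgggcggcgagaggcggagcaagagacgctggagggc
SPRY2: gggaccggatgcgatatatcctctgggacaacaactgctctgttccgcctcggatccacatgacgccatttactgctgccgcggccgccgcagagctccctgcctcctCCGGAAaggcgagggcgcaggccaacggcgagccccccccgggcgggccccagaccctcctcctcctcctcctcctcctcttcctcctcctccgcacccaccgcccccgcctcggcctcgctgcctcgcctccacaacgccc
SPRED1: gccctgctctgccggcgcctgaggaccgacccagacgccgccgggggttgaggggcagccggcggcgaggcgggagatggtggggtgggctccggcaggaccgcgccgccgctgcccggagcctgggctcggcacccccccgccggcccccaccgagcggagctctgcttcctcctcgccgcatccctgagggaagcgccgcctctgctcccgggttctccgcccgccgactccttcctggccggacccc

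Upon MEL exposure, 5 of the 10 genes were lower and 1 was higher over the 3 vectors. SPRED1, PHLDA1, SPRY4, SPRY2 and ETV4 fell, ETV5 rose, and DUSP4, DUSP5, DUSP6 and SPRED2 did not pass the test. Differences were tested with limma, which pools the spread of all probe sets, at a Benjamini-Hochberg adjusted p under 0.05. MEL moved a large part of the transcriptome, with 33.7% of all probe sets called, 16.6% lower and 17.1% higher. Of the 28 probe sets of these genes, 11 were called lower and 3 higher. The median log2 difference of the 10 genes was −0.09, beside 0.04 over the 19775 genes. The plot of all arrays by gene shows the levels on which these results rest.

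**Figure D1:**
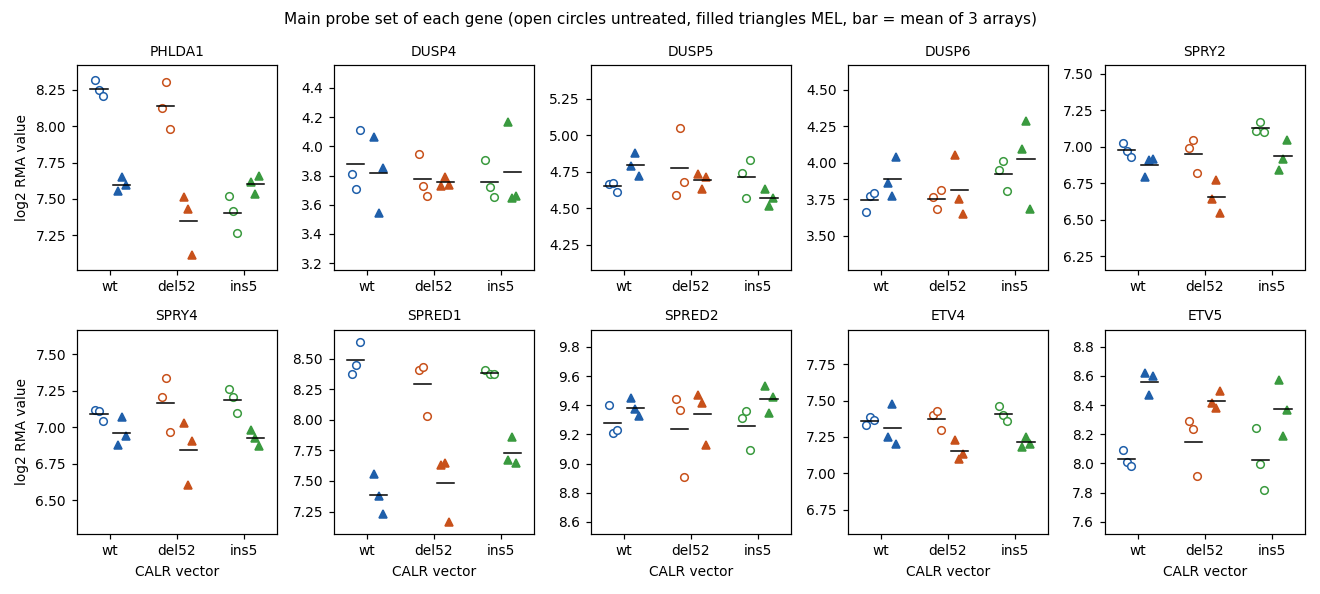
Log2 RMA values (vertical axes, each with its own range) of the main probe set of each of the 10 genes on the 18 arrays, by CALR vector (horizontal axis), with open circles for untreated cells, filled triangles for MEL and bars for the mean of 3 arrays. SPRED1 with MEL lies below every untreated array, and PHLDA1 is lower with MEL in CALRwt and CALRdel52 cells but already low in untreated CALRins5 cells.

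SPRED1, a membrane protein that brings the RAS inhibitor neurofibromin to RAS, changed most. Its main probe set had untreated log2 values of 8.37, 8.45 and 8.64 with CALRwt, 8.41, 8.43 and 8.03 with CALRdel52 and 8.41, 8.38 and 8.37 with CALRins5. With MEL the values were 7.56, 7.38 and 7.23, then 7.63, 7.65 and 7.17, and then 7.67, 7.86 and 7.65 in the same order of vectors. All 9 MEL arrays were thus below all 9 untreated arrays, a separation that 5.31% of all probe sets showed in this direction. The log2 difference over the 3 vectors was −0.86 (standard error 0.08, limma adjusted p = 2.63e-07). It was −1.10 in CALRwt cells (adjusted p = 4.82e-05), −0.81 in CALRdel52 cells (adjusted p = 0.00109) and −0.66 in CALRins5 cells (adjusted p = 0.00403). The response of CALRins5 cells was smaller than that of CALRwt cells by 0.44 on the log2 scale, with a 95% interval that reached from 0.04 to 0.84, and this difference did not pass the test (adjusted p = 0.955).

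The 3 probe sets of SPRED1 disagreed. A dimmer one (244439_at) ranged from 5.50 to 6.03 in untreated cells (median 5.65) and from 3.62 to 5.24 with MEL (median 4.61), again without overlap, and its log2 difference was −1.19 (standard error 0.18, limma adjusted p = 5.05e-05). The remaining one (235074_at) had medians of 6.60 untreated and 6.60 with MEL, and its difference of −0.02 had a 95% interval of −0.15 to 0.11. The decrease was thus seen with 2 of the 3 probe sets. Among the MEL arrays of each vector, 244439_at was highest in replicate 2 (5.02, 4.90 and 5.24). This replicate had the smallest GAPDH gap of its vector, a measure of RNA degradation described further on. The lowest value, 3.62, was that of CALRdel52 MEL replicate 3, which did not have the widest gap. The part of RNA quality in the change of 244439_at was not tested.

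SPRED2, the relative of SPRED1, had a main probe set that did not pass the test. Its untreated arrays ranged from 8.91 to 9.44 with a median of 9.32, and the MEL arrays from 9.13 to 9.53 with a median of 9.42. The log2 difference was 0.13 (95% interval −0.03 to 0.28, limma adjusted p = 0.191). A probe set far dimmer than the main one (212466_at) went the other way and was called lower, by −0.34 (adjusted p = 0.00294), and the third, dimmer still, differed by −0.07 (adjusted p = 0.604). The mean of the 3 probe sets gave −0.09, so the sign for SPRED2 depended on which probe set was read.

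SPRY2 and SPRY4 are Sprouty proteins, which hold back receptor signaling to RAS and RAF. SPRY2 untreated values were 7.03, 6.97 and 6.93 with CALRwt, 6.99, 7.04 and 6.82 with CALRdel52 and 7.11, 7.17 and 7.10 with CALRins5. With MEL they were 6.79, 6.91 and 6.92, then 6.64, 6.77 and 6.54, and then 6.84, 6.92 and 7.05. Within each vector the 3 MEL arrays lay below the 3 untreated arrays, by little in CALRwt cells, although the 9 and 9 arrays overlapped across vectors. Of all probe sets 17.3% were separated in this direction in CALRwt cells, 15% in CALRdel52 cells and 15.1% in CALRins5 cells. The log2 difference was −0.20 over the 3 vectors (standard error 0.05, limma adjusted p = 0.00586), and within vectors SPRY2 passed in CALRdel52 cells alone (−0.30, adjusted p = 0.0346).

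SPRY4 untreated values were 7.12, 7.11 and 7.04 with CALRwt, 7.20, 7.33 and 6.97 with CALRdel52 and 7.26, 7.20 and 7.10 with CALRins5. With MEL they were 6.88, 7.07 and 6.94, then 7.03, 6.60 and 6.90, and then 6.98, 6.92 and 6.87. The groups were apart in CALRins5 cells, where 15.1% of all probe sets were separated downward, and overlapped in the other vectors. The log2 difference over the 3 vectors was −0.24 (standard error 0.06, limma adjusted p = 0.00706), and it passed within no single vector. For both Sprouty genes the call over the 3 vectors was lost when quantile normalization was repeated, with −0.12 for SPRY2 (adjusted p = 0.0544) and −0.16 for SPRY4 (adjusted p = 0.0669).

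The 3 DUSP phosphatases did not pass the test with MEL. DUSP4, a nuclear phosphatase of ERK and of stress kinases, ranged from 3.65 to 4.11 in untreated cells (median 3.73) and from 3.55 to 4.17 with MEL (median 3.74). DUSP5, a nuclear phosphatase for ERK, ranged from 4.57 to 5.05 untreated (median 4.67) and from 4.51 to 4.88 with MEL (median 4.71). DUSP6, its cytoplasmic counterpart, ranged from 3.66 to 4.01 untreated (median 3.79) and from 3.65 to 4.29 with MEL (median 3.86). In all 3 genes the 9 treated and 9 untreated arrays overlapped, and by vector, among the main probe sets, only DUSP5 in CALRwt cells was separated, with 4.72 to 4.88 with MEL above 4.61 to 4.67 untreated. Of all probe sets 17.5% were separated upward in CALRwt cells. The 95% intervals of the log2 differences were −0.19 to 0.17 for DUSP4, −0.15 to 0.10 for DUSP5 and −0.06 to 0.27 for DUSP6. The 4 further probe sets of DUSP4 and DUSP6 had means of 2.31 to 3.35 and differences of −0.02 to 0.12, and none passed. Both further DUSP6 probe sets had the MEL arrays above the untreated ones in CALRdel52 cells, where 14.9% of all probe sets were separated upward.

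ETV4 and ETV5, closely related ETS transcription factors, moved in opposite directions. ETV4 untreated values were 7.33, 7.39 and 7.36 with CALRwt, 7.40, 7.43 and 7.30 with CALRdel52 and 7.46, 7.40 and 7.36 with CALRins5. With MEL they were 7.25, 7.47 and 7.20, then 7.23, 7.10 and 7.14, and then 7.18, 7.25 and 7.20. The MEL arrays were lower in the mutated cells without overlap and overlapped with the untreated arrays in CALRwt cells. Of all probe sets 15% were separated downward in CALRdel52 cells and 15.1% in CALRins5 cells. The log2 difference over the 3 vectors was −0.16 (standard error 0.05, limma adjusted p = 0.0173), and no single vector passed. The call was lost when quantile normalization was repeated (−0.08, adjusted p = 0.233) and with a covariate for RNA degradation described further on (−0.14, adjusted p = 0.168). The other ETV4 probe set (1554576_a_at), almost as bright, showed a larger decrease, from 7.34 to 7.68 in untreated cells (median 7.48) to 6.35 to 7.31 with MEL (median 6.97), with no overlap. Its log2 difference was −0.58 (standard error 0.11, adjusted p = 0.000444). Of all probe sets 5.31% had all 9 MEL arrays below all 9 untreated arrays. The lowest value of 1554576_a_at was that of CALRins5 MEL replicate 1, which had the widest GAPDH gap (1.33), described further on. Among the MEL arrays it was highest in replicate 2 of every vector (7.13, 7.12 and 7.31), where the gap was smallest. The part of RNA quality in the change of this probe set was not tested.

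ETV5 had untreated values of 8.09, 8.01 and 7.99 with CALRwt, 8.29, 8.24 and 7.91 with CALRdel52 and 8.25, 8.00 and 7.82 with CALRins5. With MEL they were 8.62, 8.47 and 8.60, then 8.42, 8.38 and 8.49, and then 8.57, 8.19 and 8.37. The MEL arrays were higher without overlap in CALRwt and CALRdel52 cells and overlapped in CALRins5 cells. Of all probe sets 17.5% were separated upward in CALRwt cells and 14.9% in CALRdel52 cells. ETV5 rose by 0.39 on the log2 scale over the 3 vectors (standard error 0.07, limma adjusted p = 0.000301). Within vectors the increase passed in CALRwt cells (0.53, adjusted p = 0.00615) and not in CALRdel52 (0.28) or CALRins5 cells (0.36). Of the 4 further ETV5 probe sets, 1 was called higher (203348_s_at, 0.17, adjusted p = 0.038) and the others differed by 0.00 to 0.18. By vector 203348_s_at changed by 0.33 in CALRwt (limma adjusted p = 0.0346), −0.10 in CALRdel52 (0.602) and 0.26 in CALRins5 cells (0.125). ETV5 was read by 230102_at when probe sets marked _x_at or _s_at, whose probes can match several transcripts, were removed. It then differed by 0.18 (limma adjusted p = 0.0578 in that smaller set).

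**Figure D2:**
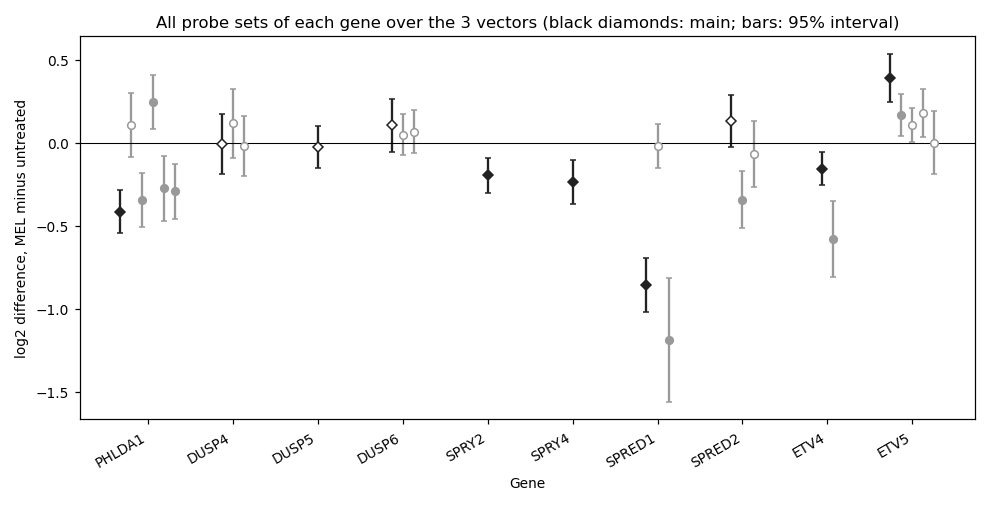
Log2 change with MEL relative to untreated cells, averaged over the 3 vectors (vertical axis), for all 28 probe sets, grouped by gene (horizontal axis), with black diamonds for the main probe set, grey circles for the others, bars for the 95% interval and filled symbols for an adjusted p under 0.05. The probe sets of PHLDA1, SPRED1 and SPRED2 did not all move alike, whereas both ETV4 probe sets were lower.

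PHLDA1, a pleckstrin homology-like protein whose transcript is often used as a marker of ERK activity, fell with MEL in CALRwt and CALRdel52 cells and was not called in CALRins5 cells. In CALRwt cells its values were 8.32, 8.25 and 8.21 untreated and 7.55, 7.65 and 7.59 with MEL. In CALRdel52 cells they were 8.12, 8.30 and 7.98 untreated and 7.51, 7.43 and 7.11 with MEL. In CALRins5 cells they were 7.52, 7.42 and 7.27 untreated and 7.62, 7.54 and 7.66 with MEL. Untreated CALRins5 cells were thus at the level that the other cells reached with MEL.

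The decrease of PHLDA1 was −0.66 in CALRwt cells (standard error 0.11, limma adjusted p = 0.00047) and −0.79 in CALRdel52 cells (standard error 0.11, adjusted p = 0.000267). In CALRins5 cells all 3 MEL arrays lay slightly above the untreated ones, by 0.20 on average (95% interval −0.03 to 0.42, adjusted p = 0.281). A separation of 3 from 3 arrays in that direction was shown by 14.8% of all probe sets. Over the 3 vectors the difference was −0.42 (adjusted p = 4.95e-05). In the order of group means, untreated CALRwt (8.26 ± 0.06, SD, n = 3) and CALRdel52 cells (8.14 ± 0.16) led and did not differ beyond their spread, with a difference of −0.12 (adjusted p = 0.764). The other 4 groups followed, MEL-treated CALRins5 (7.60 ± 0.06) and CALRwt cells (7.60 ± 0.05), untreated CALRins5 cells (7.40 ± 0.13) and MEL-treated CALRdel52 cells (7.35 ± 0.21).

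Among the 10 genes only PHLDA1 passed in a comparison of vectors. In untreated cells it was lower in CALRins5 than in CALRwt cells by −0.86 (standard error 0.10, limma adjusted p = 0.0362), where 0.00914% of all probe sets were called, all of them lower. These were 5 probe sets, of which 2 read PHLDA1, the other being 217997_at with −0.95 (adjusted p = 0.0362). It was also lower in CALRins5 than in CALRdel52 cells, by −0.73 (standard error 0.10, adjusted p = 0.01), where 0.827% of all probe sets were called, 0.514% lower and 0.313% higher. Both comparisons share the untreated CALRins5 arrays. The call against CALRwt cells was lost without any 1 of the 6 arrays (differences of −0.92 to −0.79, adjusted p = 0.0969 to 0.331) and with a model without moderation (adjusted p = 0.204). The 3 CALRins5 arrays lay below the 3 CALRwt arrays by at least 0.69, a separation that was not counted over all probe sets. The call against CALRdel52 cells was lost without CALRdel52 replicate 1 (−0.74, adjusted p = 0.0563), CALRins5 replicate 2 (−0.74, 0.0536) or CALRins5 replicate 3 (−0.67, 0.0583).

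Of the 6 probe sets of PHLDA1, 5 had lower values in the 3 untreated CALRins5 arrays than in all 6 other untreated arrays. How many of all probe sets were separated in this way was not counted, so this is a description only. In untreated CALRins5 cells 217997_at had 6.63, 6.44 and 6.15, beside 7.33, 7.39 and 7.36 with CALRwt and 7.16, 7.04 and 7.08 with CALRdel52, and with MEL it fell to 6.73, 6.80 and 6.64 in the former and to 6.70, 6.48 and 6.18 in the latter. It repeated the pattern of the main probe set. The probe set 225842_at was also low in untreated CALRins5 cells (6.43, 6.26 and 5.84, against 6.99, 6.96 and 6.85 in CALRdel52 cells, limma adjusted p = 0.028), but over the 3 vectors it was called higher with MEL (0.24, adjusted p = 0.0219). By vector its change was 0.66 in CALRins5 cells (adjusted p = 0.00419), 0.17 in CALRwt cells (0.452) and −0.09 in CALRdel52 cells (0.71). The dimmer 218000_s_at and 217999_s_at were lower with MEL by −0.28 and −0.29 (adjusted p = 0.0303 and 0.008). Their changes by vector were −0.57 and −0.40 with CALRwt, −0.40 and −0.43 with CALRdel52, and 0.14 and −0.05 with CALRins5, of which the first of 218000_s_at (adjusted p = 0.0225) and the second of 217999_s_at (adjusted p = 0.0489) passed. In untreated cells both had all 3 CALRins5 arrays below those of the other vectors, with differences from CALRwt cells of −0.48 and −0.45 that did not pass (adjusted p = 0.448 and 0.493). The remaining 217998_at, the runner-up in brightness, differed by 0.11 with MEL (95% interval −0.08 to 0.30) and by −0.07 between untreated CALRins5 and CALRwt cells (95% interval −0.35 to 0.20).

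**Figure D3:**
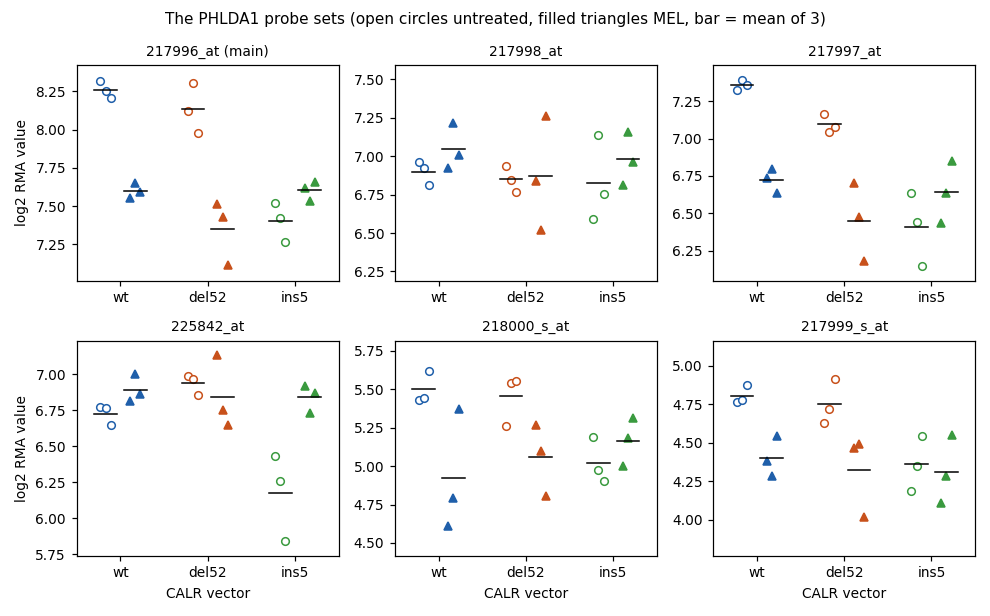
Log2 RMA values (vertical axes, each with its own range) of the 6 PHLDA1 probe sets on the 18 arrays by CALR vector (horizontal axis), with open circles for untreated cells, filled triangles for MEL and bars for the mean of 3 arrays. In 5 of the 6 probe sets the untreated CALRins5 arrays lie below the untreated arrays of the other vectors, and 217998_at is the exception. This separation was not counted over all probe sets.

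The difference in response to MEL was tested directly. None of the 10 genes passed for mutated against CALRwt cells, for CALRdel52 against CALRwt cells or for CALRins5 against CALRwt cells, comparisons in which 0% of all probe sets were called. For PHLDA1 the response of CALRins5 cells exceeded that of CALRwt cells by 0.86 on the log2 scale (95% interval 0.54 to 1.18, limma adjusted p = 0.274), and with the trend and robust options of the test it passed (adjusted p = 0.0399). The difference between the responses of CALRins5 and CALRdel52 cells, added after the PHLDA1 values had been seen, was 0.99 (95% interval 0.67 to 1.30, adjusted p = 0.0363). It was called for 0.0146% of all probe sets, 8 in number, with 0.011% higher and 0.00366% lower. With each of the 12 arrays of this comparison left out in turn it was 0.87 to 1.06, and it passed without CALRdel52 MEL replicate 1, untreated CALRdel52 replicate 3 or untreated CALRins5 replicate 1 and failed without any of the other 9 (adjusted p up to 0.161). Without both arrays that stood apart it was 0.86 and did not pass (adjusted p = 0.182). Between these vectors PHLDA1 differed by −0.73 in untreated cells and by 0.25 with MEL (limma adjusted p = 0.55). The larger part of the difference in response thus lay in the untreated arrays, where CALRins5 cells were low.

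**Figure D4:**
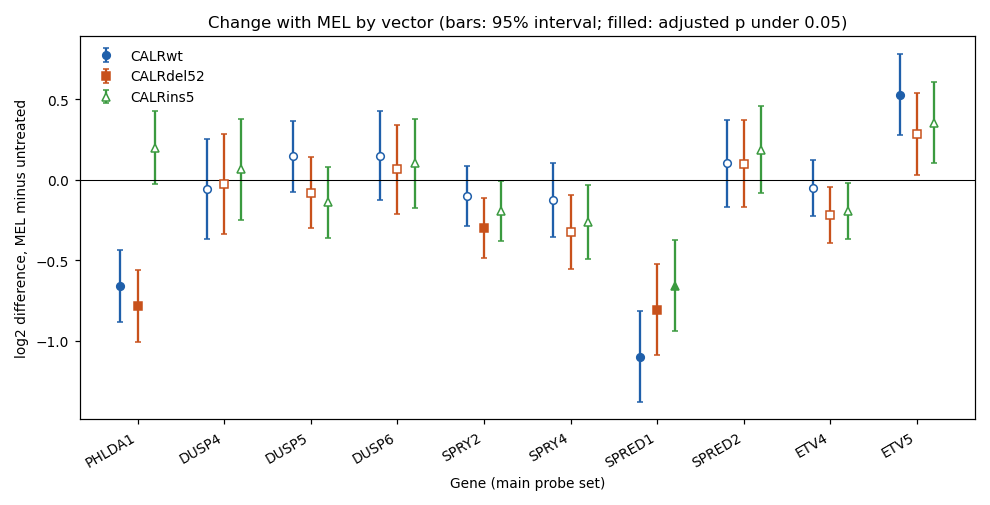
Log2 difference between MEL and untreated cells (vertical axis) for the main probe set of each of the 10 genes (horizontal axis) in CALRwt (circles), CALRdel52 (squares) and CALRins5 cells (triangles), with bars for the 95% interval and filled symbols for an adjusted p under 0.05. SPRED1 is below 0 in all 3 vectors, and PHLDA1 is below 0 in CALRwt and CALRdel52 cells with an interval across 0 in CALRins5 cells.

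By vector, 3 of the 10 genes were called with MEL in CALRwt cells (2 lower and 1 higher, where 15.8% of all probe sets were called, 9.12% lower and 6.64% higher). In CALRdel52 cells 3 genes were called, all lower, where 12.2% of probe sets were called, 7.2% lower and 5% higher. In CALRins5 cells SPRED1 alone was called, where 10.1% of probe sets were called, 6.21% lower and 3.88% higher, and this call was lost with the covariate for RNA degradation (−0.60, adjusted p = 0.0642). With MEL, no member passed between mutated and CALRwt cells or between any pair of vectors. The percentages of all probe sets called there were 0.0494% for mutated, 0.0256% for CALRdel52 and 0.0402% for CALRins5 cells against CALRwt cells, and 0.0402% for CALRins5 against CALRdel52 cells. Unadjusted p-values under 0.05 were found for 0, 2, 2 and 2 of the 10 genes in the same order. The smallest adjusted p of these comparisons was 0.395, for SPRY2 between CALRins5 and CALRdel52 cells (0.28 on the log2 scale). Among untreated cells no member passed for CALRdel52 against CALRwt cells (0.0366% of probe sets called) or for mutated against CALRwt cells (0%), with unadjusted p under 0.05 for 0 and 1 of the genes.

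Values of RNA quality moved with MEL. GAPDH signal at the 3' end of the transcript exceeded that at its 5' end, a gap that widens with RNA degradation, by 0.31 to 0.41 on the log2 scale in untreated cells and by 0.42 to 1.33 with MEL. The widest gap was that of CALRins5 MEL replicate 1, while the array least like the others was CALRdel52 MEL replicate 3 (median correlation 0.989). With the GAPDH gap as a covariate, SPRED1 (−0.81, limma adjusted p = 7.01e-05), PHLDA1 (−0.41, adjusted p = 0.00288), SPRY4 (−0.29, adjusted p = 0.0258) and ETV5 (0.27, adjusted p = 0.0405) were still called over the 3 vectors. SPRY2 (−0.14, adjusted p = 0.178) and ETV4 were not. Every MEL array had a wider gap than every untreated array, so MEL and RNA quality cannot be fully told apart by this fit. Without the 2 arrays named, the count was again 6, with 5 lower and 1 higher. As a check of the cell type, all 7 measured erythroid leukemia markers were above the median level, and of these the globin gene HBZ (−0.48, limma adjusted p = 9.79e-07) and the transcription factors NFE2 (−0.39, adjusted p = 3.27e-05) and GATA1 (−0.20, adjusted p = 0.00495) fell with MEL. Other lists had 2 of 5 (fibroblast), 2 of 4 (T cell), 1 of 2 (B cell), 2 of 3 (epithelial) and 1 of 3 (monocyte) markers above it. Of these other markers EPCAM (−0.26) and KRT19 (−0.19) were lower and LYZ (0.25) was higher with MEL, and the part of these markers in the results was not tested.

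The wider pathway was described by 5 lists of other genes, each gene read by its brightest probe set. Of 16 measured genes of the cascade from BCR and ABL1 to ERK, 6 were higher and 1 lower with MEL over the 3 vectors, with a list median of 0.03. The largest changes were those of the kinase ABL1 (0.50, limma adjusted p = 1.23e-06), the adaptor GRB2 (0.32, adjusted p = 6.28e-05), the GTPase HRAS (0.29, adjusted p = 0.00101) and the RAF scaffold SHOC2 (−0.26, adjusted p = 0.0236). The ABL1 probe set cannot tell the normal gene from the fusion. Of 10 other inhibitors of RAS to ERK signaling, 4 were higher and 2 lower (median −0.08). Among them the RAF inhibitor PEBP1 fell by 0.40, while the GTPase activator RASA3 (0.37), the SPRED family member SPRED3 (0.36) and the RAS ubiquitin ligase adaptor LZTR1 (0.29) rose. SPRED3 thus rose where SPRED1 fell.

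Of 8 other MAPK phosphatases, 2 were higher and 2 lower (median 0.01). DUSP9 (−0.28, limma adjusted p = 0.0121) and DUSP1 (−0.18, adjusted p = 0.0213) fell, and DUSP16 (0.17, adjusted p = 0.0076) and DUSP2 (0.15, adjusted p = 0.0221) rose. Of 12 effector kinases and transcription factors of ERK, 3 were higher and 1 lower (median 0.08), with increases of the kinase MKNK2 (0.21) and of the transcription factors SRF (0.18) and ELK1 (0.17) and a decrease of the ETS factor ELK3 (−0.25).

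Of 14 other ERK output genes, 8 were lower and 1 higher (median −0.21). The immediate early genes FOS (−1.71) and EGR1 (−1.68) changed most, more than any of the 10 feedback and output genes, followed by the ETS factor ETV1 (−0.55) and the AP-1 subunit JUNB (−0.48). The single increase was that of FOSL1, another AP-1 subunit (0.39, limma adjusted p = 0.00118). ETV1, the third member of the ETV4 and ETV5 subfamily, was thus lower like ETV4. In no list did the genes called with MEL all move the same way. Between vectors, FOS was lower with MEL in mutated than in CALRwt cells (−0.92, limma adjusted p = 0.0229). It was also lower in CALRdel52 than in CALRwt cells with MEL (−1.13, adjusted p = 0.0341). FOS (0.86, adjusted p = 0.0284) and DUSP9 (0.52, adjusted p = 0.0274) were higher in untreated CALRins5 than in untreated CALRdel52 cells. No other gene of the 5 lists was called between vectors.

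**Figure D5:**
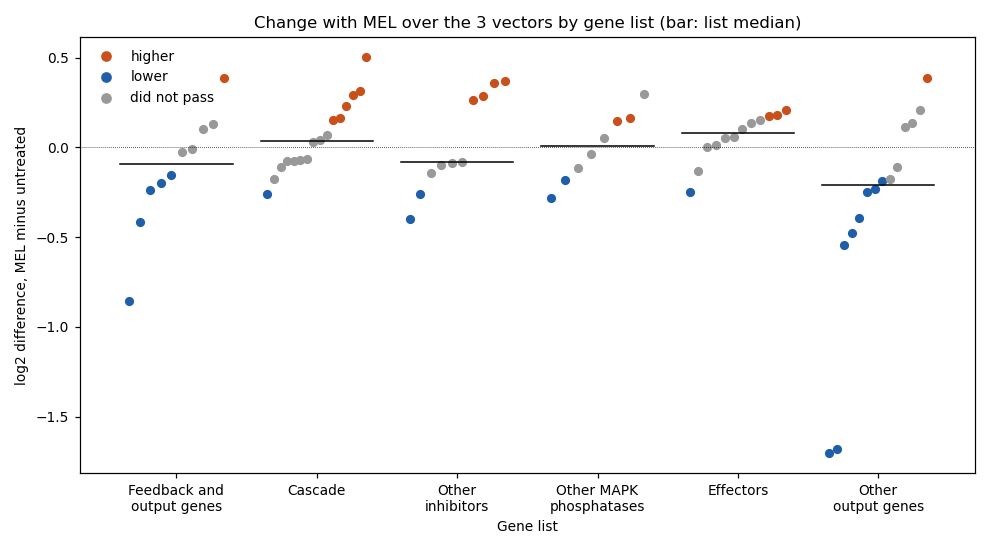
Log2 change with MEL relative to untreated cells, averaged over the 3 vectors (vertical axis), of every measured gene in 6 lists (horizontal axis), with orange points for genes called higher, blue for genes called lower, grey for genes that did not pass and a bar for the list median. The medians lie between −0.21 and 0.08, and FOS and EGR1 lie below −1.6.

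The 10 genes did not vary as a unit over the arrays. Across the 45 pairs of main probe sets, Pearson's r over the 18 arrays had a median of 0.06 and ranged from −0.79 (SPRED1 with ETV5) to 0.86 (SPRY4 with ETV4). After removal of the group means the median was 0.20, with a range of −0.32 to 0.78. Many of the pairs include a dim DUSP gene. The 5 genes called lower with MEL were positive in every pair among them, with r from 0.31 to 0.86 and from 0.08 to 0.69 after that removal. With each of these 5 genes ETV5 had a negative r over the arrays (−0.34 to −0.79). Once group means were removed, its r with them was positive (0.08 to 0.48). These arrays share the MEL contrast, and the values are given as a description without a test. Among 19765 other genes, the most similar profile over the 18 arrays was that of DNAH14 for SPRED1 (r = 0.98), TACC3 for ETV5 (0.96), MRFAP1L2 for SPRY2 (0.90), KMT2D for SPRED2 (0.89), TNFAIP8L1 for SPRY4 (0.88), RAP2B for PHLDA1 (0.88) and ZC2HC1C for ETV4 (0.88). For the dim DUSP6, DUSP4 and DUSP5 these were NTS (0.83), SLC5A8 (0.82) and FGF7 (0.80).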

How the data were processed

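The authors extracted total RNA from transduced K562 cells, labelled it with a 3' IVT kit (GeneChip 3' IVT Plus per the labels, another kit per the study's supplement) and made RMA expression values in Partek GS. The deposited values are on the log2 scale, 1 for each probe set on each array, and were used as deposited. RMA corrects background, equalises arrays and summarises probes, so a difference that affected most probes would be reduced. The sources used here do not say which arrays entered RMA together. The probe sets are those of the HG-U133 Plus design, while the study's supplement names another array.

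Symbols were taken from the array's probe table. Of 54675 probe sets 41097 named 1 gene, 1801 several and 11777 none. The last 2 kinds stayed in the tests but named no gene. No 2 arrays held identical values, array medians were 4.56 to 4.66 and no value column was left unused. Groups were taken from the sample labels.

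Testing used lmFit and eBayes of limma 3.58.1 (R 4.3.3) on all probe sets without a filter, with Benjamini-Hochberg adjustment over all of them and a threshold of 0.05. For comparisons within untreated cells 9 arrays in 3 groups were fitted, and for all others 18 arrays in 6 groups. There were 15 planned comparisons and 1 added later. The model was tested on simulated data, but the outcome is not given here and no result rests on it. The number of arrays limits the precision. Alternatives were the replicate number as a block, repeated quantile normalization, centring on array medians, a filter at the median level, removal of _x_at and _s_at probe sets, averaging of a gene's probe sets, the trend and robust options of eBayes, no moderation, other sets of arrays, the GAPDH gap as a covariate, leaving out both arrays that stood apart, and leaving out each array. Removal of _x_at and _s_at probe sets left SPRY4 unread and read DUSP6, ETV4 and ETV5 by other probe sets. Plots were made in matplotlib 3.10.9 (Python 3.11.15).

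The genes named were the 10 members with all their probe sets, up to 4 called genes of each pathway list by size of change with MEL, and for each member the gene of highest correlation over the arrays. FOSL1 was named after its value had been seen, as were the cell type markers that moved and the FOS and DUSP9 differences between vectors. Members and lists were chosen with earlier results of these data known. Genes of the lists without a probe set in the table were not analysed here, and promoter windows of 4 members were not used. Member windows on chromosome 8, where DUSP4 lies, were left out by choice, whereas the windows they were compared with were not filtered by chromosome.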

Additional observations from a re-analysis of the deposited data

Results flagged for a closer look

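PHLDA1 passed the test of a difference in response to MEL between the mutated vectors, a call that was lost without any 1 of 9 of the 12 arrays compared, with centred arrays, with the GAPDH covariate, with averaged probe sets and without both arrays that stood apart. Its log2 value changed by 0.20 with MEL in CALRins5 cells and by −0.79 in CALRdel52 cells, a difference of 0.99 (0.9851, standard error 0.15, limma adjusted p = 0.0363), with all 3 MEL arrays above the untreated ones in CALRins5 cells and all 3 below in CALRdel52 cells. Of all probe sets 14.8% were separated upward in CALRins5 cells and 15% downward in CALRdel52 cells. The comparison of responses was added after the PHLDA1 values had been seen. Of the other PHLDA1 probe sets, 217997_at gave 0.88 (adjusted p = 0.228) and 225842_at gave 0.75 (adjusted p = 0.345). For the main probe set, CALRins5 differed from CALRdel52 cells by −0.73 untreated and by 0.25 with MEL (limma adjusted p = 0.55). The flagged difference thus rests for its larger part on the untreated arrays, which also gave the call between untreated vectors.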

How the results depend on the processing

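With MEL over the 3 vectors the count of called genes was 4 to 6 over the alternatives and 6 without any single array. It was 2 higher and 2 lower after repeated quantile normalization, beside 1 higher and 5 lower as reported, with SPRY2 (adjusted p = 0.0544), SPRY4 (0.0669) and ETV4 (−0.08, 0.233) lost and SPRED2 gained (0.21, 0.0239). In CALRwt cells the count was 2 or 3. In CALRdel52 cells it was 3 as reported, 5 with arrays centred on medians, 5 with probe sets above the median level only and 5 with the mean of all probe sets, and 2 to 4 without single arrays. SPRY2 lost its call there without CALRdel52 MEL replicates 1 or 3 (−0.29 and −0.24) or untreated replicates 1 or 2 (−0.28 and −0.25). In CALRins5 cells it was 1 as reported, 0 with the GAPDH covariate, and 1 to 2 without single arrays. There it was 2 with the replicate block, repeated quantile normalization, probe sets above the median level, the trend and robust options, the mean of all probe sets or removal of _x_at and _s_at probe sets. For untreated CALRins5 against CALRwt cells it was 1 as reported, 0 with the GAPDH covariate (adjusted p = 0.104) or without moderation, and 0 to 0 without single arrays. Against CALRdel52 cells it was 1, and 0 without moderation or 0 to 1 without single arrays. For untreated mutated against CALRwt cells it was 0, and 1 with the trend and robust options. For the response of CALRins5 minus CALRwt cells it was 0, and 1 with those options. For the response of CALRins5 minus CALRdel52 cells it was 1, and 0 with centred arrays (adjusted p = 0.0507), with the GAPDH covariate (0.0636), with the mean of all probe sets (0.0911) or without both arrays that stood apart (0.182), and 0 to 1 without single arrays. No called value changed sign under any alternative run. The causes were not tested.

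The replicate numbers were not treated as pairs. Over 45 pairs of arrays with equal numbers the correlation of deviations from group means was −0.22 to 0.23, and 16 pairs were above 0.1, although 15 of 18 arrays correlated best with an array of their own number. The replicate block left the count over the 3 vectors at 6 and added ETV5 in CALRins5 cells (adjusted p = 0.043), and it changed no other count of called genes.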
